A study of Homo sapiens with 9 samples.

Results

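The genes described here are NFKB1, NFKB2, CD70 and IL32, measured in HEK293 cells with and without a label of overexpression of the zinc-sensing receptor GPR39. They were taken by gene symbol from the annotation of the array, and each of the 4 has 1 probe set among the 14884 named genes of the table. The genes had been picked with their levels in all 3 groups in view, so their own differences are given as a description and are not tested. HEK293 is an established human embryonic kidney cell line, and RNA was read on 9 single-colour Affymetrix arrays. The mock group (3 arrays) is labelled naive, mock control and without cumate. The GPR39 group (3 arrays) has a GPR39 overexpression label and was given 0.03 mg/mL cumate, a small molecule that switches on engineered genes. The agonist group (3 arrays) carries the same overexpression label with 1 uM TC-G-1008, a synthetic GPR39 agonist, and the labels do not say whether it also received cumate. The sources used here give no construct, clone or exposure time. No group has cumate or agonist without the receptor label, so receptor and cumate cannot be told apart. In agonist against GPR39, TC-G-1008 and a possible difference in cumate cannot be told apart either.

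NF-kB is a family of dimeric transcription factors. NFKB1 encodes the precursor p105 and its DNA-binding product p50, NFKB2 encodes p100 and p52, and both work with RELA, RELB or REL, which carry the activation domains. In the resting cell the dimers are held in the cytoplasm by inhibitors of the IkB type, and p105 and p100 themselves hold back partners until they are cut. NFKB1 and NFKB2 are themselves well-known NF-kB targets. CD70 is a surface ligand of the tumour necrosis factor (TNF) family that binds the receptor CD27 on lymphocytes and is best known from activated B, T and dendritic cells. IL32 encodes an inflammatory cytokine best known from T cells, natural killer cells and stimulated epithelium.

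The promoters of the genes are shown as a description, since the genes were picked with their levels in these arrays in view. Whether a kappaB site has a part in those levels was not tested. RefSeq promoter windows on GRCh38.p14, each 300 bases from 250 before to 50 after an annotated start site, were matched by symbol for 3 of the 4 genes (NFKB1, NFKB2 and IL32, with 7 windows in all). They were searched on both strands for the kappaB consensus motif, the AP-1 site TGANTCA and the cAMP response element TGACGTCA. The kappaB motif was found in 4 of the 7 windows, against 11.3% of all 35116 windows. It was found in all 3 genes, against 13.3% of the 27305 genes with a window. These 3 genes have 7 windows and the 27305 genes have 35116, so more windows per gene were searched in the 3. The 180 bases before those 4 start sites are printed 5' to 3', with the kappaB matches in capitals.
NFKB1 start site 1, chr4:102501179-102501358, + strand: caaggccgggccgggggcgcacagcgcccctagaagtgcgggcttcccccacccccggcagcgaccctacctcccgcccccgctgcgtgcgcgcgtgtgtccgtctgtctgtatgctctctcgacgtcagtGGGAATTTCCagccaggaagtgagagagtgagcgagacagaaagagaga
NFKB2 start site 2, chr10:102394398-102394577, + strand: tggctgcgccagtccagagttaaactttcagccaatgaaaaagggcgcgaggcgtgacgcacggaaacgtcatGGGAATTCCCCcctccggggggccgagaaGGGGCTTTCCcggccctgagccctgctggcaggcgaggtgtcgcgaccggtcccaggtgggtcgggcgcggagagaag
NFKB2 start site 3, chr10:102395525-102395704, + strand: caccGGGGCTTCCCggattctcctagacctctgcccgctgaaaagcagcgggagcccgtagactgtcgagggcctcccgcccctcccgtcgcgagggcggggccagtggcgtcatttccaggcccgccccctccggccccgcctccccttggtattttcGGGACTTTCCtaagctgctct
IL32 start site 1, chr16:3065223-3065402, + strand: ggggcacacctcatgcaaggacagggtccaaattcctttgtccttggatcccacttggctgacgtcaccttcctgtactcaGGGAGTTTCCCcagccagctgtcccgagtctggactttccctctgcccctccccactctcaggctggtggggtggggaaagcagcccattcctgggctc
The match of NFKB1 lies at positions -49 to -40 from its start site. At start site 2 of NFKB2 a match on each strand overlaps, at -107 to -98 and -106 to -97, and another lies at -78 to -69. At start site 3 of NFKB2 matches lie at -176 to -167 and -21 to -12. In IL32 the matches of both strands overlap at -99 to -90 and -98 to -89, and IL32 also holds TGACGTCA at -121 to -114, a motif present in 1.85% of all windows. No window of these genes held TGANTCA, which 7.71% of all windows hold. A match describes the letters only, and whether a factor binds there was not measured.

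**Figure D1:**
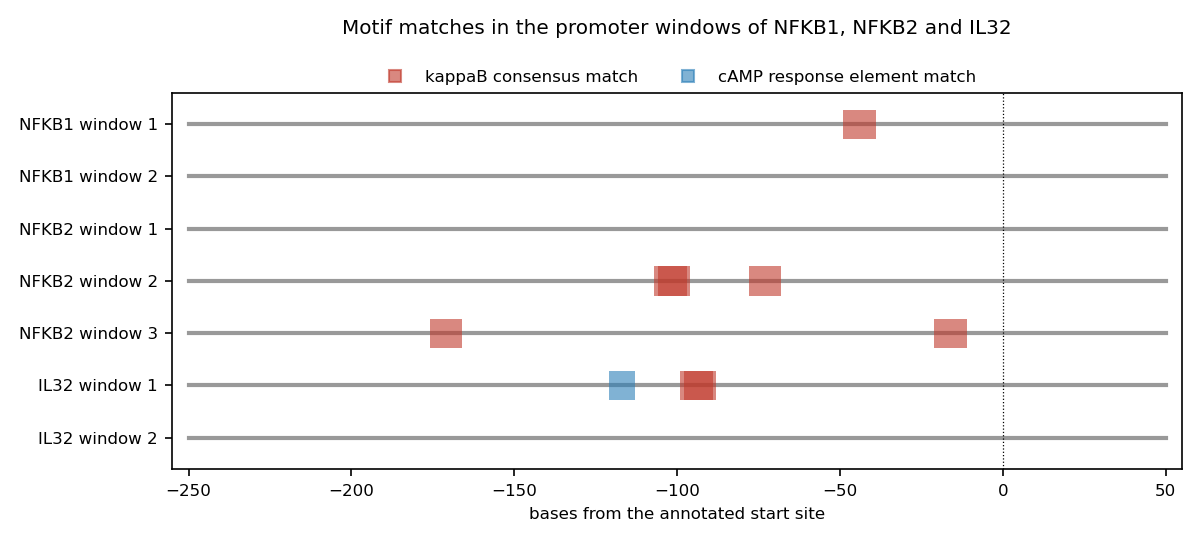
Positions of kappaB consensus matches (red) and of the cAMP response element (blue) in the 7 RefSeq promoter windows of NFKB1, NFKB2 and IL32, in bases from the annotated start site (dotted line). Darker red marks overlapping matches on both strands, and 4 of the 7 windows hold a kappaB match.

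Values are log2 signals per probe set, compared between arrays for a gene and not between genes. Array medians lay between 3.13 and 3.22. A probe set was tested when it was above the 40th percentile of its array (2.63 to 2.70) in at least 3 arrays, which held for 33376 probe sets and for all 4 genes. Mock replicate 1 correlated over all probe sets more with the GPR39 arrays (mean r = 0.988) than with the other mock arrays (mean r = 0.985), so the differences of the 4 genes and the counts of signalling and target genes against mock are also given without it. The median SD over tested probe sets was 0.11 in the GPR39 arrays and 0.14 in each of the other groups, and 1.75% of probe sets had identical values in all 3 GPR39 arrays. None of the values of the 4 genes were identical between arrays. The GPR39 probe set read 2.43 to 2.65 in all 9 arrays, and did not pass the filter, so it gives no check of the overexpression label. The HEK293 marker IRS4 averaged 10.54 in mock and less with the receptor label, at 9.52 (GPR39) and 9.69 (agonist). The summed linear signal of the 6 named of 10 HEK293 markers ran from 2079.9 to 2153 in mock, 1387 to 1411 in the GPR39 arrays and 1214.5 to 1585 in the agonist arrays. The sum was lower in both groups where the 4 genes were higher, but it rests mostly on IRS4, the brightest marker. VIM, KRT8 and PAX2 also had lower means in both groups. KRT18 had means of 7.81, 8.08 and 8.11 in mock, GPR39 and agonist arrays, and EYA1 of 7.59, 7.77 and 6.95. The leukocyte markers CD14, LAPTM5, NKG7, CD2, TYROBP and LYZ lay between 2.13 and 3.68. Of 14 leukocyte markers 7 have a named probe set, and their summed linear signal ran from 133 to 163 in mock, 237 to 244 in the GPR39 arrays and 269 to 308 in the agonist arrays. Without CD68, a lysosomal glycoprotein gene, the sums were 48.1 to 50.6, 49.1 to 53.4 and 53.3 to 55.9, and the part of these markers in the levels of CD70 and IL32 was not tested. In bulk RNA, more cells expressing a gene and more RNA per cell cannot be told apart.

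NFKB1 read 6.43, 6.58 and 6.48 in the mock arrays, 7.33, 7.37 and 7.37 in the GPR39 arrays and 8.21, 8.12 and 8.19 in the agonist arrays. The 3 groups formed 3 separate levels, with the agonist arrays highest and mock lowest. The means were 6.50 ± 0.08, 7.36 ± 0.03 and 8.18 ± 0.05 (SD, n = 3 each). The gap between the nearest arrays was 0.75 on the log2 scale at each step, while the widest range within a group was 0.15. The GPR39 arrays stood 0.86 ± 0.07 (standard error, SE) above mock on the log2 scale, which is 1.82-fold, and the agonist arrays stood a further 0.82 ± 0.07, or 1.76-fold, higher. From mock to agonist the difference was 1.68 ± 0.07, or 3.20-fold, and the first step made up 51.2% of it. Without mock replicate 1 the first step was 0.83 and the whole difference 1.65.

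NFKB2, the subunit gene of the non-canonical arm, read 6.08, 5.87 and 5.87 in mock, 6.87, 6.90 and 6.86 in the GPR39 arrays and 7.77, 7.64 and 7.54 in the agonist arrays. The order was that of NFKB1, and no arrays of different groups overlapped. The means were 5.94 ± 0.12, 6.88 ± 0.02 and 7.65 ± 0.12 (SD, n = 3 each). The first step was 0.94 ± 0.09 (SE), or 1.92-fold, and the second 0.77 ± 0.09, or 1.71-fold. Between mock and agonist NFKB2 differed by 1.71 ± 0.09, or 3.27-fold, with 54.8% of it in the first step. Mock replicate 1 was the highest of the mock arrays, and without it the first step was 1.01 and the whole difference 1.78. Over the 9 arrays, which fall into 3 groups, the values of NFKB1 and NFKB2 had a Pearson correlation of 0.988.

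CD70 had another order, with the GPR39 arrays highest and the agonist arrays between them and mock. Its values were 5.41, 5.42 and 4.98 in mock, 7.24, 7.43 and 7.14 in the GPR39 arrays and 6.36, 6.22 and 6.35 in the agonist arrays. The groups did not overlap, and the gaps of 1.72, 0.79 and 0.80 between the nearest arrays of GPR39 and mock, of GPR39 and agonist, and of agonist and mock exceeded the widest range within a group, 0.44. The means were 5.27 ± 0.25, 7.27 ± 0.15 and 6.31 ± 0.07 (SD, n = 3 each). The GPR39 arrays stood 2.0 ± 0.13 (SE) above mock, or 4.0-fold. The agonist arrays stood at -0.96 ± 0.13 relative to the GPR39 arrays, which is 1.95-fold lower, and 1.04 ± 0.13 above mock, or 2.05-fold. Leaving out mock replicate 1 gave 2.07 for GPR39 against mock and 1.11 for agonist against mock.

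IL32 lay near array background in mock and higher in the other groups. It read 3.0, 2.12 and 2.54 in mock, 3.78, 3.56 and 3.69 in the GPR39 arrays and 3.24, 3.50 and 3.50 in the agonist arrays. Mock replicates 2 and 3 were below the 40th percentile of their arrays, and mock replicate 1 was nearest to the other groups. The means were 2.55 ± 0.44, 3.67 ± 0.11 and 3.41 ± 0.15 (SD, n = 3 each). With mock values raised to the 40th percentile, the GPR39 arrays stood at least 0.90 and the agonist arrays at least 0.64 above mock, and without mock replicate 1 these bounds were 1.02 and 0.76. The GPR39 and agonist arrays were separated by only 0.05 at the nearest arrays, less than the range within either group (0.22 and 0.26). The agonist mean stood at -0.26 ± 0.20 (SE) relative to the GPR39 mean, so the order of these groups is uncertain. Its log2 values correlated with those of CD70 at 0.849 over the 9 arrays, and with those of NFKB1 and NFKB2 at 0.646 and 0.710.

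**Figure D2:**
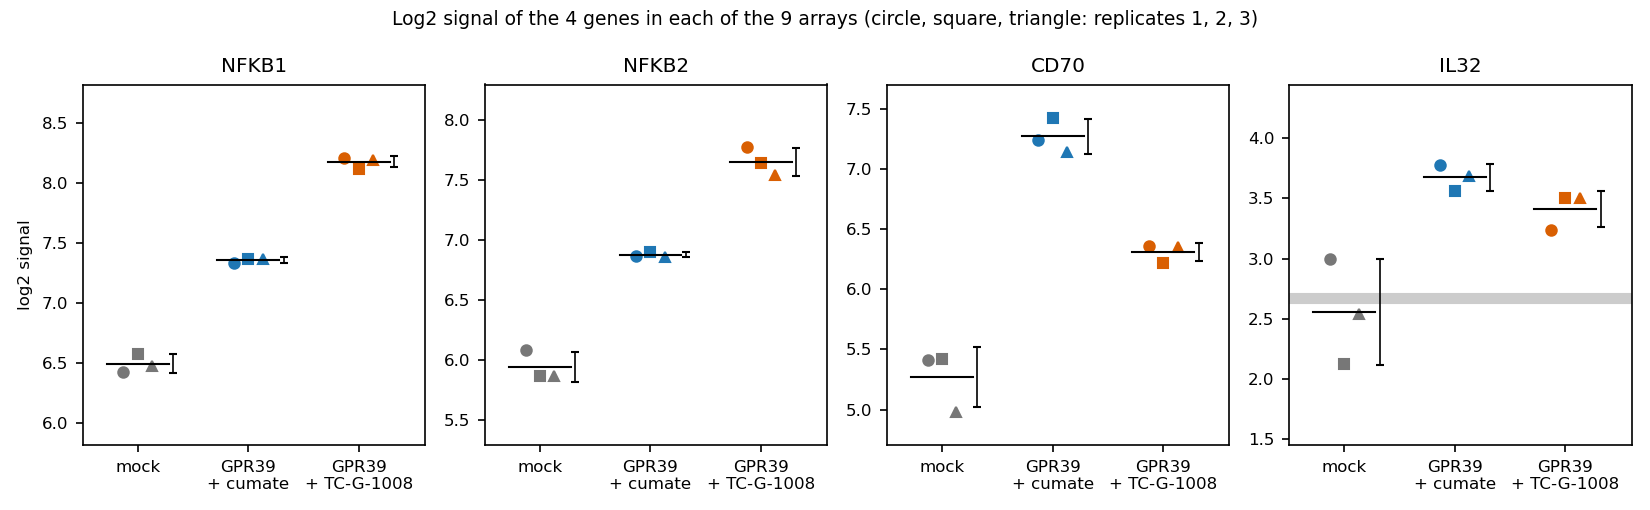
Log2 signal (y axis, each panel spanning the same number of log2 units) of NFKB1, NFKB2, CD70 and IL32 in the mock, GPR39 and agonist arrays, with a symbol per replicate, a line at the group mean and a bar of 1 SD. The grey band in the IL32 panel spans the 40th percentiles of the arrays. NFKB1 and NFKB2 are higher at each step, CD70 is highest in the GPR39 arrays at 7.27, and the nearest IL32 values of the GPR39 and agonist arrays are 0.05 apart.

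In GPR39 against mock, the arrays of all 4 genes were higher without overlap, as were those of 11.4% of all tested probe sets, while 9.28% were lower without overlap. In agonist against GPR39, NFKB1 and NFKB2 were higher without overlap (13.5% of tested probe sets) and CD70 and IL32 lower (16.5%). In agonist against mock, all 4 were higher without overlap (14.8%, with 16.2% lower). Since these contrasts chose the genes, nothing is read from the counts. The 3 comparisons share arrays and are not independent of each other.

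The other subunits were tested with limma over all probe sets, with Benjamini-Hochberg adjusted p-values and a threshold of 0.05. At that threshold 1.17% of tested probe sets passed in GPR39 against mock, 9.06% in agonist against GPR39 and 15% in agonist against mock. The shares that were lower were 0.422%, 5.95% and 8.94%. Of the calls in these comparisons 63.9%, 34.4% and 40.6% were higher, and centring each array on its 75th percentile moved the first share to 74.7% and the last to 56.2%. Centring on the array median gave 65.3%, 25.6% and 32.5%. REL, which encodes c-Rel, was highest in the agonist arrays. It read 7.13, 7.20 and 7.39 in mock, 7.46, 7.39 and 7.50 in the GPR39 arrays and 8.45, 8.47 and 8.18 in the agonist arrays. The nearest mock and GPR39 arrays both read 7.39, and the agonist arrays stood apart. The log2 difference was 0.21 ± 0.10 (SE) for GPR39 against mock (adjusted p = 0.382) and 0.92 ± 0.10 for agonist against GPR39 (adjusted p = 0.00205), and whether the steps differ was not tested. REL also rose from mock to agonist by 1.13 (adjusted p = 0.000332).

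RELB, the usual partner of p52, read 4.30, 4.74 and 4.28 in mock, 4.91, 4.93 and 4.86 in the GPR39 arrays and 5.29, 5.29 and 5.13 in the agonist arrays. The groups did not overlap. RELB rose by 0.80 ± 0.12 (SE) from mock to agonist (adjusted p = 0.00401), while the steps of 0.46 ± 0.12 and 0.34 ± 0.12 did not pass (adjusted p = 0.147 and 0.142). Mock replicate 2 was the highest mock array of RELB, and without it both steps passed, at 0.60 (adjusted p = 0.0377) and 0.34 (adjusted p = 0.0356). RELA, which encodes the common partner p65, read 7.39, 7.24 and 7.13 in mock, 7.43, 7.49 and 7.36 in the GPR39 arrays and 7.43, 7.64 and 7.73 in the agonist arrays. Neighbouring groups of RELA overlapped. Its differences were 0.18 ± 0.10 and 0.17 ± 0.10 at the steps (adjusted p = 0.455 and 0.362) and 0.35 ± 0.10 from mock to agonist (adjusted p = 0.0545). The last passed under 5 alternatives: without mock replicate 1 (0.41, adjusted p = 0.0400), without agonist replicate 1 (0.43, adjusted p = 0.0321), with 75th-percentile centring (0.42, adjusted p = 0.0389), with a filter at the 60th percentile (adjusted p = 0.0342) and with a trended robust prior (adjusted p = 0.0336).

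**Figure D3:**
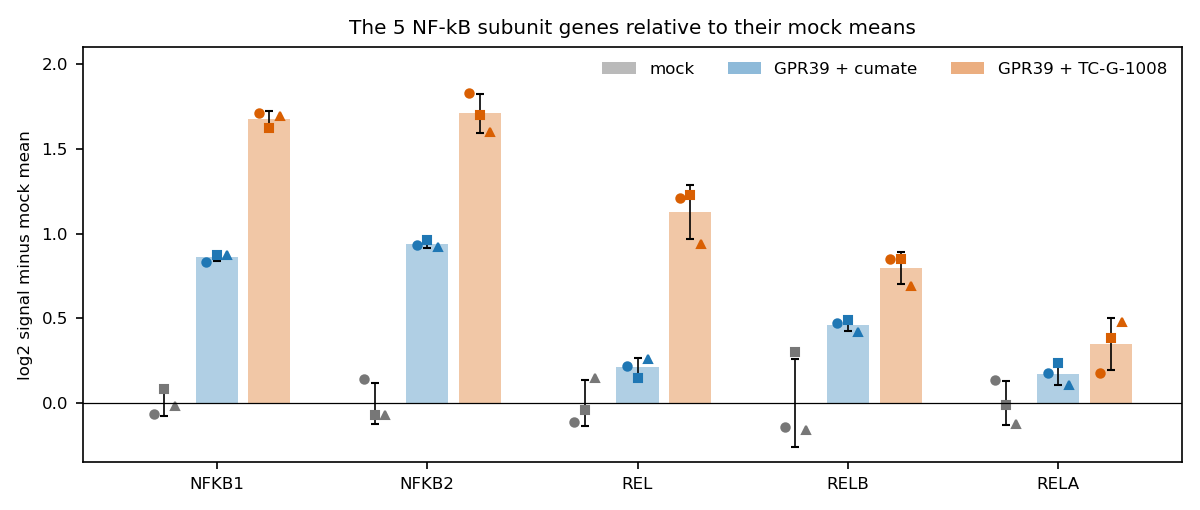
Log2 signal minus the mean of the mock arrays (y axis) for the NF-kB subunit genes NFKB1, NFKB2, REL, RELB and RELA, with bars at group means, error bars of 1 SD and a symbol per replicate. From mock to agonist the differences are 1.68, 1.71, 1.13, 0.80 and 0.35 in that order.

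Of 13 listed subunit and inhibitor genes 8 had a named probe set and all 8 were tested. None passed in GPR39 against mock in limma at the adjusted threshold, against 1.17% of all tested probe sets. The median change was 0.16, against 0.01 over all tested probe sets. In agonist against GPR39, REL was the 1 that rose and NKIRAS2, a gene for a Ras-like protein that binds IkB, was the 1 that fell, by -0.39 ± 0.09 (SE; adjusted p = 0.0354). Each is 12.5% of the 8, against 3.12% higher and 5.95% lower over all tested probe sets. The call of NKIRAS2 was lost without each of the 3 GPR39 arrays and without agonist replicates 1 and 2. It was also lost with no filter, 75th-percentile centring, quantile normalization or the replicate number as a block. Its adjusted p was up to 0.113 over the alternatives run. BCL3, a nuclear co-regulator that binds p50 and p52, had means of 4.70, 4.63 and 4.74 in mock, GPR39 and agonist arrays and passed in no comparison. The classical inhibitor NFKBIA and the feedback deubiquitinase gene TNFAIP3 have no named probe set and were not analysed here.

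Kinases, adaptors and deubiquitinases that carry signals to NF-kB had 31 tested of 42 listed genes. In GPR39 against mock none passed, against 1.17% of all tested probe sets, and the median change was 0.03. In agonist against GPR39, 1 rose and 4 fell (3.23% and 12.9%, against 3.12% and 5.95% of all tested probe sets). The share that rose is near that of all tested probe sets. TRAF4, an adaptor of the TRAF family, rose by 0.37 ± 0.08 (SE; adjusted p = 0.0207). The adaptor genes TRAF5 and TRADD changed by -0.55 and -0.67, the kinase gene TBK1 by -0.45 and TAB1, a partner of the kinase TAK1, by -0.48 (adjusted p from 0.0216 to 0.0441). The other TAB1 probe set was at -0.22. Each of these 5 calls was lost without GPR39 replicate 2, without GPR39 replicate 3 and with the replicate number as a block. The highest adjusted p over the alternatives run was 0.137, for TRADD. TRADD also lost its call without 6 of the other arrays (all but agonist replicate 3) and with 75th-percentile centring or quantile normalization. With no filter or only the 6 arrays of the comparison its call was lost too. From mock to agonist 7 rose and 4 fell (22.6% and 12.9%, against 6.11% and 8.94% of all tested probe sets). Among them were the deubiquitinase gene CYLD at 0.56, the adaptor genes BCL10 at 0.53 and RIPK2 at 0.59, and TRAF5 at -0.79. MAP3K14, which encodes the kinase NIK that triggers the cutting of p100, read 5.38 ± 0.10, 5.65 ± 0.11 and 5.71 ± 0.02 (SD, n = 3) in mock, GPR39 and agonist arrays. It rose by 0.33 from mock to agonist (adjusted p = 0.0279) and lost that call without mock replicate 1 or 3 or any agonist array. The MAP3K14 call was also lost with median centring and with only the 6 arrays of the comparison (adjusted p up to 0.0778). Without mock replicate 3, 3 of these genes were higher and 2 lower from mock to agonist, and without mock replicate 1, 8 and 3.

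CD27, the receptor of CD70, lay above the array medians (3.13 to 3.22) in every array. It read 3.66, 3.75 and 3.81 in mock, 3.79, 3.81 and 3.81 in the GPR39 arrays and 3.93, 4.15 and 3.91 in the agonist arrays. The GPR39 arrays overlapped with mock and the agonist arrays lay above both, and no comparison passed (adjusted p = 0.782, 0.213 and 0.0834). From mock to agonist CD27 passed with each array centred on its 75th percentile, at 0.32 (adjusted p = 0.0271). Of 29 listed TNF family receptors 5 were tested, and none passed in GPR39 against mock, against 1.17% of all tested probe sets. In agonist against GPR39 1 rose and 1 fell (20% each, against 3.12% and 5.95% of all tested probe sets). RELT, a receptor of that family, rose by 0.48 ± 0.08 (SE) from GPR39 to agonist (adjusted p = 0.0107). The other RELT probe set changed by 0.31. EDA2R, the receptor of an ectodysplasin form, changed by -0.44 ± 0.10 (adjusted p = 0.0347) and lost the call without each of the GPR39 and agonist arrays and without mock replicate 3, with an adjusted p of up to 0.117. The EDA2R call was also lost with no filter, 75th-percentile centring, quantile normalization or the replicate number as a block. Among 17 listed TNF family ligands other than CD70 only TNF and EDA were tested. Neither passed in any comparison, against 1.17%, 9.06% and 15% of all tested probe sets. TNF, the founding ligand, had means of 3.94 ± 0.27, 4.26 ± 0.16 and 4.14 ± 0.13 (SD, n = 3) in mock, GPR39 and agonist arrays. Of the listed partners of CD70 and IL32, PRTN3, the gene of a protease that binds IL32, had means of 3.23, 3.50 and 3.51 and passed in no comparison. PTK2, which encodes focal adhesion kinase, was lower by -0.25 ± 0.06 from mock to agonist (adjusted p = 0.0304). It was 1 of 2 tested partners (50% lower, against 8.94% of all tested probe sets). Its call was lost without 8 of the 9 arrays, all but mock replicate 1. The call was also lost with no filter, with only the 6 arrays of the comparison and with the replicate number as a block. So it was with 75th-percentile centring or quantile normalization (adjusted p up to 0.102).

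Among listed NF-kB target genes, 28 of 44 were tested. In GPR39 against mock 8 rose and none fell (28.6% higher, against 0.749% of all tested probe sets), with a median change of 0.29 against 0.01 over all tested probe sets. Several of these genes were put on the list with their results in these data known, so the counts are a description. The sets are also unlike, since only 12827 of the 33376 tested probe sets are named. No share over named genes alone was computed. CD44, a hyaluronan receptor gene, rose by 1.75 ± 0.08 (SE), and the stress-response gene IER3 by 1.46 ± 0.07, with its 10 other probe sets between 0.66 and 1.46 (adjusted p = 4.66e-05 for both). ICAM1, a leukocyte adhesion molecule gene, read 4.42, 4.13 and 4.44 in mock, 5.27, 5.54 and 5.55 in the GPR39 arrays and 5.11, 5.17 and 5.05 in the agonist arrays. As with CD70, the GPR39 arrays of ICAM1 were the highest and did not overlap with the agonist arrays. ICAM1 rose by 1.12 ± 0.11 against mock (adjusted p = 0.00387), and its -0.34 from GPR39 to agonist did not pass. Against mock the chemokine gene CCL2 rose by 1.99, CCL20 by 1.77 and CXCL8, with mock values near background, by at least 2.35. From GPR39 to agonist CXCL8 and CCL20 rose by 2.95 and 2.46, and CCL2 was at -0.60 and did not pass, although it passed with arrays centred on their medians (-0.65, adjusted p = 0.0476) and without agonist replicate 2 (-0.74, adjusted p = 0.0485). The remaining calls, named because they complete the 8, were SDC4, a syndecan gene, at 0.86 and LIF, a cytokine gene, at 0.61. SDC4 lost its call without mock replicate 2, any GPR39 array or any agonist array, and LIF without any GPR39 array. Both lost it with the replicate number as a block, and SDC4 also with no filter or only the 6 arrays of the comparison. Adjusted p was up to 0.144 for SDC4 and 0.0568 for LIF. Without mock replicate 1, 9 of 28 target genes rose and none fell, and without any 1 of the GPR39 arrays 6 rose and none fell.

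In agonist against GPR39, 11 target genes rose and 1 fell (39.3% higher, against 3.12% of all tested probe sets), with a median of 0.38. BCL2A1, an anti-apoptotic gene, read 3.0, 2.33 and 2.66 in the GPR39 arrays and 5.23, 5.30 and 4.84 in the agonist arrays, a rise of at least 2.35 (adjusted p = 0.000272). Its agonist arrays stood clear of both other groups, where mock read 2.49, 2.54 and 2.52. SAT1, which encodes a polyamine acetyltransferase, rose by 1.31 ± 0.07 (SE; adjusted p = 4.5e-05), after -0.08 in GPR39 against mock. CD44 rose by a further 0.80 (adjusted p = 0.00117) and the cyclin gene CCND1 by 0.62 (adjusted p = 0.00201). The 1 target gene that fell, named to complete the count, was BCL2L1, the gene of the survival protein BCL-XL, at -0.67 ± 0.09 (adjusted p = 0.00426). Without mock replicate 1, 10 rose and 1 fell. From mock to agonist 17 of 28 target genes rose and 1 fell (60.7% higher, against 6.11% of all tested probe sets), with a median of 0.74. CD44 rose by 2.55, IER3 by 1.86, SAT1 by 1.23 and BCL2A1 by at least 2.47. Without mock replicate 1 the count was again 17 and 1.

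**Figure D4:**
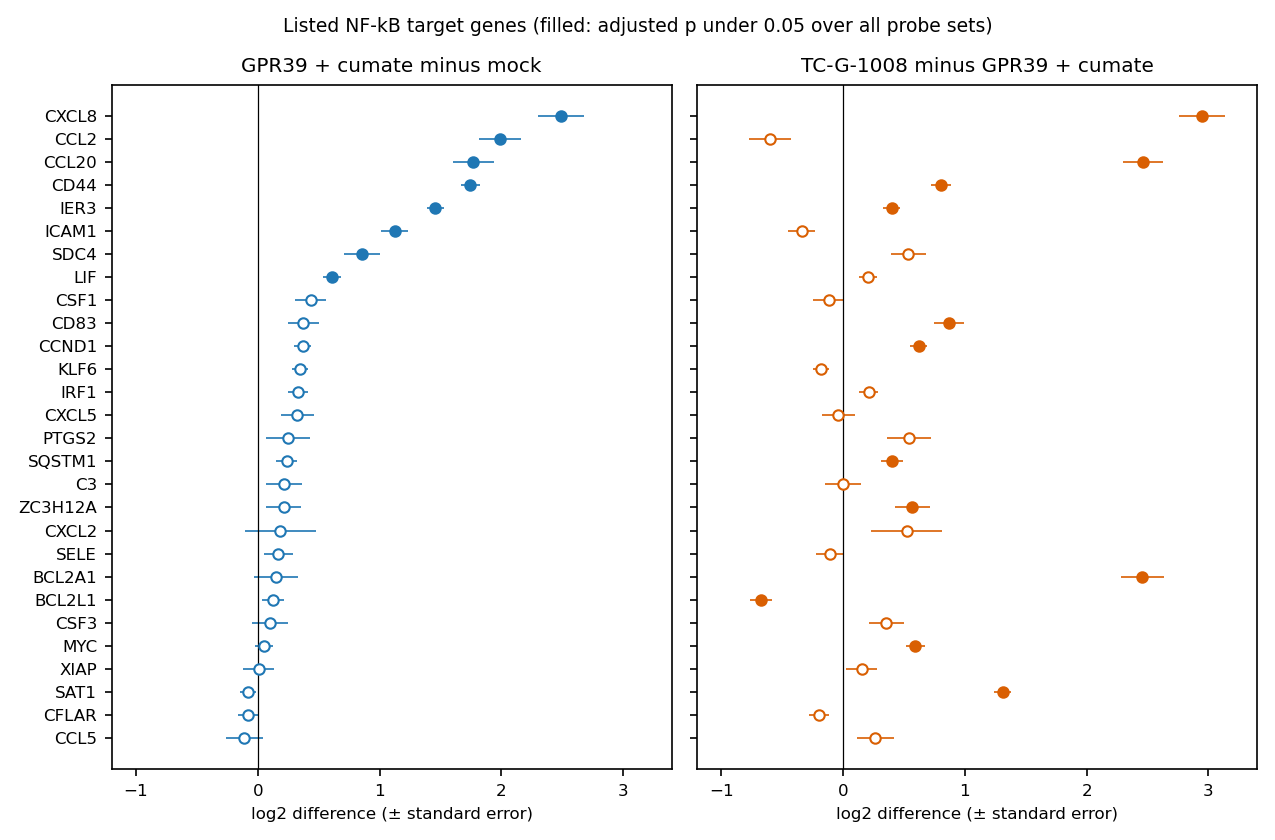
Log2 difference with its standard error (x axis) of the 28 tested NF-kB target genes (y axis, ordered by the left panel) for GPR39 against mock and for agonist against GPR39. Filled points passed the adjusted threshold, 8 on the left and 12 on the right, and the only filled point below 0 is BCL2L1 at -0.67.

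The 6 lists together hold 150 genes with 76 tested, and were chosen with earlier results of these data known. In GPR39 against mock 8 rose and none fell (10.5% higher, against 0.749% of all tested probe sets). In agonist against GPR39 14 rose and 7 fell (18.4% and 9.21%, against 3.12% and 5.95%). In agonist against mock 27 rose and 7 fell (35.5% and 9.21%, against 6.11% and 8.94%). The share that fell in the last, 9.21%, is near the 8.94% of all tested probe sets, and without mock replicate 3 the count was 22 and 3. The middle count was 13 and 1 without GPR39 replicate 1, 11 and 1 without GPR39 replicate 2 or 3, and 11 and 3 without agonist replicate 3. For listed genes with a RefSeq promoter window, the kappaB motif was found in 7 of 10 subunit and inhibitor genes. It was found in 9 of 37 signalling genes, 5 of 13 ligands, 5 of 17 receptors and 15 of 34 target genes. Among partners of CD70 and IL32 it was found in 0 of 3. These counts stand beside the 13.3% of all genes given above, and the number of windows per gene was not taken into account.

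The genes most like each of the 4 were sought among 11912 named tested genes by the Pearson correlation of log2 values over the 9 arrays, which share 3 groups. For NFKB1 these were EPHA2, an ephrin receptor gene, at r = 0.999, TMED5 at 0.993, the unfolded-protein response gene XBP1 at 0.993 and the protease inhibitor gene TFPI2 at 0.992. EPHA2 had means of 6.46, 7.5 and 8.53 in mock, GPR39 and agonist arrays, so it climbed in similar steps. For NFKB2 they were GEM, a small GTP-binding protein gene, and the growth factor gene HBEGF at 0.994 each, CXCL8 at 0.991 and the aryl hydrocarbon receptor gene AHR at 0.990. HBEGF had means of 5.23, 6.16 and 6.99.

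CD70 was closest to the annexin gene ANXA3 at 0.990, IMPA1 at 0.982, the actin-bundling plastin gene LCP1 at 0.975 and the splicing regulator gene MBNL2 at 0.972. ANXA3 had means of 6.70 ± 0.10, 7.93 ± 0.05 and 7.29 ± 0.02 (SD, n = 3), highest in the GPR39 arrays as was CD70. IL32 was closest to PAQR3 at 0.966, C21orf91 at 0.947, the tight-junction gene CLDN1 at 0.942 and the apolipoprotein gene APOC1 at 0.942. Its correlations rest in part on mock values near background. No gene appeared in more than 1 of the 4 sets.

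**Figure D5:**
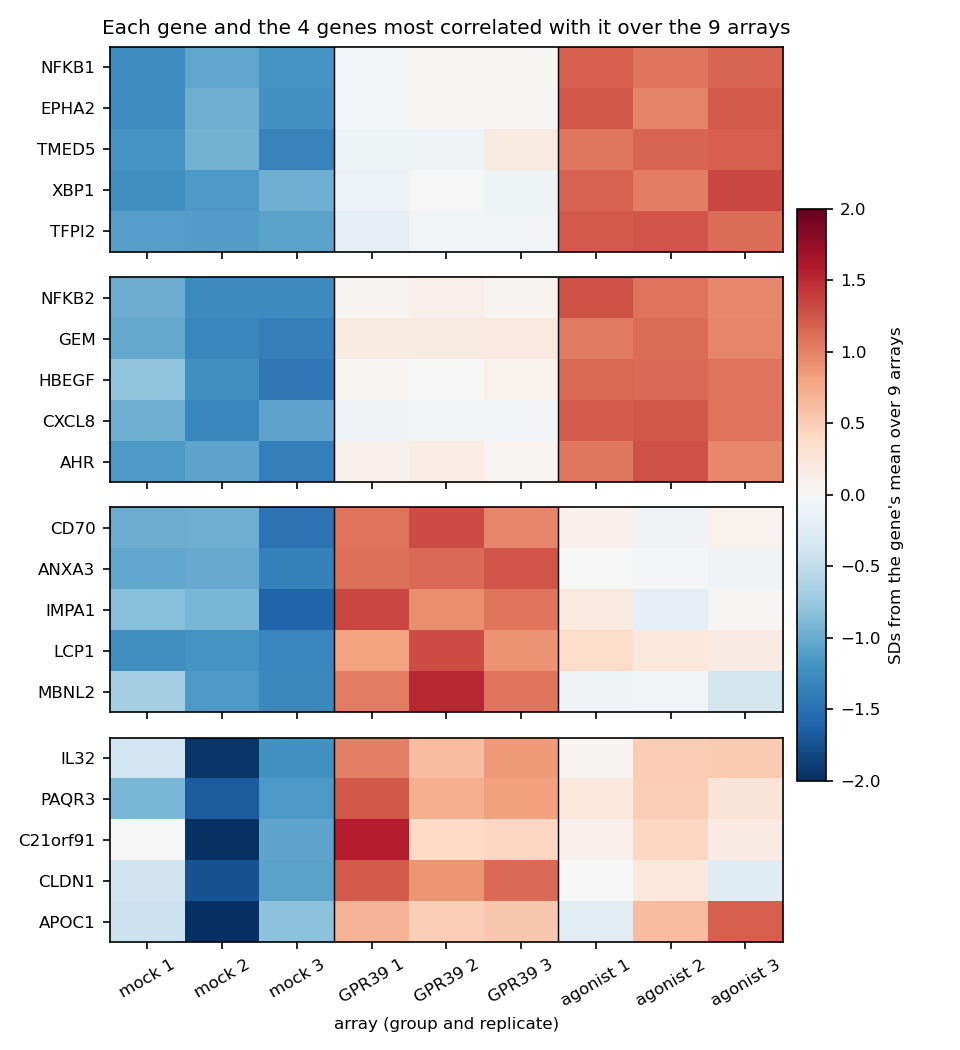
Standardised log2 signal (colour, in SDs from the gene's mean over the 9 arrays) of NFKB1, NFKB2, CD70 and IL32, each with the 4 genes most correlated with it (rows), in each array (columns, grouped by vertical lines). The NFKB1 and NFKB2 blocks are darkest red in the agonist arrays, and the CD70 block, with ANXA3 at r = 0.990, is darkest red in the GPR39 arrays.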

How the data were processed

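Values were deposited by the authors on what their range (0.717 to 13.5) shows to be a log2 scale, and MAS5 is the only tool named, per the submitters' processing notes. Its version, and how arrays were background-corrected, normalized and logged, the sources used here do not give. Values were used as deposited. Of 53617 probe sets 16098 carry 1 gene symbol, updated by Entrez identifier from RefSeq on GRCh38.p14, and none carries several. The test covered 33376 probe sets that exceeded the 40th percentile in 3 or more arrays. One limma 3.58.1 model (R 4.3.3) held the 9 arrays, with 6 residual and 2.12 prior degrees of freedom, two-sided, with Benjamini-Hochberg adjustment over all tested probe sets. The scripts were tested on simulated data. For genes with several probe sets the one with the highest mean was used. Where a group lies near background, "at least" marks a difference with values below the 40th percentile raised to it. The genes and the lists (subunits and inhibitors, signalling, ligands, receptors, partners, targets) were chosen with earlier results of these data known. Named genes are the 4 genes, up to 6 called genes per list and comparison with the smallest p, a fixed set (RELA, RELB, REL, NFKBIA, TNFAIP3, CD27, TNF and MAP3K14), and the 4 most correlated genes of each. BCL3, PRTN3, EDA, SDC4, LIF and BCL2L1 fall outside that rule and were named after their values were seen, to complete a list or a count. SQSTM1 and ZC3H12A also fall outside it and were named because their calls were lost. The labels call the replicates biological but name no separate cultures, and p-values reflect array-to-array spread only. Alternatives varied the filter, scaling, variance model, arrays fitted, repeated rows, replicate block and each array left out. Array number limits the precision.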

Additional observations from a re-analysis of the deposited data

How the results depend on the processing

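The differences of NFKB1, NFKB2, CD70 and IL32 kept their direction in all 225 values recomputed under 19 alternatives, and 223 moved by less than 1 SD between replicates. The others were NFKB1 with arrays centred on the 75th percentile, at 0.92 for GPR39 against mock and 1.75 for agonist against mock. Many of the 225 values could not move, and the agreement of those values says nothing about stability. Changing the filter, the variance model, the repeated rows or the replicate block leaves a difference of group means as it is. So does fitting only the arrays compared, or leaving out an array of the group not compared. Of 63 called changes of listed genes 43 kept their call under every alternative run. The count of probe sets called was less stable. For GPR39 against mock it was 391, and it became 637 with a filter at the 60th percentile, 663 with a trended robust prior and 190 with the 6 arrays of the comparison alone. Leaving out 1 array gave between 108 (without GPR39 replicate 3) and 1324 (without mock replicate 1, with 419 higher and 905 lower, and 371 of the 391 kept). It gave 137 and 193 without mock replicates 2 and 3, and 150 and 115 without GPR39 replicates 1 and 2. For agonist against GPR39 it was 3025, between 1518 and 3157 with 1 array left out (1589, 1537 and 1518 without GPR39 replicates 1, 2 and 3), and for agonist against mock 5022, or 3133 with 6 arrays alone. Listed genes called in agonist against GPR39 numbered 21, and between 12 and 20 with 1 array left out. Same-numbered arrays did not deviate together (correlations of deviations from -0.10 to 0.06, against -0.13 to 0.12 for other pairs), and 2 of 9 arrays were closest to their own number in another group. With the replicate number as a block, 150 and 1819 probe sets passed in the first comparisons and 12 listed genes in agonist against GPR39. Raising dim values to the 40th percentile was chosen after seeing the data. IL32 did not pass the filter at the 60th percentile and has no value there. The cause of these shifts was not tested.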

Other observations

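NFKB1, NFKB2, CD70 and IL32 lie on chromosomes 4, 10, 19 and 16. The nearest named and tested protein-coding gene on either side of each, in the gene order of RefSeq on GRCh38.p14, was looked up after the values had been seen. These were DDIT4L and CISD2 for NFKB1, GBF1 and PSD for NFKB2, DENND1C and C3 for CD70, and MMP25 and ZSCAN10 for IL32. None of the 8 passed in any comparison in limma, at the adjusted threshold, against 1.17%, 9.06% and 15% of all tested probe sets. Distances were not computed, and genes without a named and tested probe set were passed over. Around NFKB1, the mitochondrial membrane gene CISD2 differed by 0.06 ± 0.07 (SE) between GPR39 and mock and by -0.07 ± 0.07 between agonist and GPR39. Beside NFKB2, the Arf exchange factor gene GBF1 differed by -0.01 ± 0.06 at each step. Beside CD70, DENND1C differed by 0.16 ± 0.10 and -0.23 ± 0.10, and the complement gene C3 by 0.22 ± 0.15 and -0.00234 ± 0.15. Beside IL32, the matrix metalloproteinase gene MMP25 differed by 0.12 ± 0.08 and -0.11 ± 0.08.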
